A study of Mus musculus with 12 samples.

Results

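The 32 genes described here encode the enzymes and transporters of glycolysis, the regulators of its fructose bisphosphate switch, and genes of the hypoxia response. They were taken by symbol from a list of names, which was chosen with earlier results of these data known. All 32 were matched among the 56941 genes of the deposited count table. The low-count filter kept 30 of them, and the remaining pair, Ldhb and Egln3, had no count in any library. The study asked what the nucleolar protein NOP16 does in antibody class switching. It used CH12F3-2A, a mouse B cell lymphoma line that switches from IgM to IgA in culture. Total RNA of 12 cultures was sequenced, 3 biological replicates in each of 4 groups.

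Cells of every group had received the pX459 plasmid, which carries Cas9, a guide RNA and puromycin resistance, and puromycin for 72 h. One pair of groups carried a control guide (sgCtr) and the other pair a guide to Nop16 (sgNop16), and both pairs are populations of 1 line with 1 guide each. Within each pair, 1 group was left unstimulated (no) and 1 was given CIT for 24 h, a mix of anti-CD40L at 1 μg/ml, IL-4 at 20 ng/ml and, at 1 ng/ml, human TGF-β made as a recombinant protein. The 4 groups are called sgCtr_no, sgCtr_CIT, sgNop16_no and sgNop16_CIT. Levels are given as CPM, a gene's count scaled to a common library size and adjusted for composition, and differences between groups as log2 changes with their standard error (SE).

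Libraries held 38866418 to 48615177 counts. Nop16 itself was at 106.3 ± 2.33 CPM (SD, n = 3) in sgCtr_no and 85.63 ± 3.1 CPM in sgNop16_no, and at 77.05 ± 3.46 CPM in sgCtr_CIT and 65.7 ± 0.93 CPM in sgNop16_CIT. Its RNA was lower with the Nop16 guide by a log2 change of -0.31 ± 0.04 without CIT (adjusted p = 0.000563) and -0.23 ± 0.04 with CIT (adjusted p = 0.00455). An RNA level does not show how much of the protein was lost. The 8 B cell markers summed to 6250 to 9210 CPM per library, and all 8 were detected. Markers of T cells summed to 0.343 to 1.22 CPM, of fibroblasts to 0.332 to 0.919 CPM, with 3 of 5 at 0, and of erythroid cells to 1.65 to 3.62 CPM. Macrophage markers, 1 of 5 at 0, summed to 7.7 to 8.9 CPM in sgCtr_no, 11.9 to 15.1 in sgCtr_CIT, 9.44 to 10.9 in sgNop16_no and 15.7 to 18.1 in sgNop16_CIT. They did not move together. After CIT in sgCtr, group totals of Adgre1 went from 0 to 94 counts and those of Itgam from 92 to 0. Of the 4 tested, 2 rose and 1 fell in sgCtr, against 20.4% and 20.9% of all tested genes. In sgNop16 1 rose and 0 fell, against 18.9% and 18.2%. Without CIT 1 was higher in sgNop16 than in sgCtr, against 1.79%. The change after CIT was lower in sgNop16 than in sgCtr for 1, against 1.25%. The part of these markers in the results below was not tested.

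Glycolysis splits glucose into pyruvate, which is either reduced to lactate and exported or passed into mitochondria. Hypoxia-inducible factor 1 alpha (HIF1A) is marked for destruction by oxygen-dependent prolyl hydroxylases, and where it is stable it binds short DNA elements near many glycolytic genes and raises their transcription. Activated B cells commonly take up more glucose, and in lymphocytes the transcription factor MYC is another known regulator of the same enzymes.

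The promoters of 6 members are shown. They were chosen because the genes moved in opposite directions after CIT and each holds the core letters of the hypoxia response element. Each is the stretch just before a start site in RefSeq's promoter windows of GRCm38.p6, 5′ to 3′ on the gene's strand and clear of annotated exons. Capitals mark ACGTG or GCGTG read on either strand, so CACGT and CACGC are the same motifs on the other strand. Where CACGTG stands, ACGTG matches on both strands, and these letters are also the E-box bound by MYC. The hexokinase gene Hk2 (ENSMUSG00000000628, chr6:82774455-82774704, minus strand) and Hif1a (ENSMUSG00000021109, chr12:73907617-73907866, plus strand) were higher after CIT.
Hk2: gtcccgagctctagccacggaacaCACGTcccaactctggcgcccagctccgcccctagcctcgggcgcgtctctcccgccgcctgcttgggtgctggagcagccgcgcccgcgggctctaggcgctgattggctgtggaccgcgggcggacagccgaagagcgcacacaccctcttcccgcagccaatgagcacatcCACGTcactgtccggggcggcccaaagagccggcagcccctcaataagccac
Hif1a: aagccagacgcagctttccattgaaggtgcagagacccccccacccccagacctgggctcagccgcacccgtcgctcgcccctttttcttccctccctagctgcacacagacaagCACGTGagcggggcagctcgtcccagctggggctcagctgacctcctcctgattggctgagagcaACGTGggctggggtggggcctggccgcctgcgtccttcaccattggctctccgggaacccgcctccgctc
The lactate dehydrogenase gene Ldha (ENSMUSG00000063229, chr7:46845554-46845803), Pgk1 (ENSMUSG00000062070, chrX:106186850-106187099), Pgam1 (ENSMUSG00000011752, chr19:41911621-41911870) and the lactate transporter gene Slc16a1 (ENSMUSG00000032902, chr3:104638414-104638663), all on the plus strand, were lower after CIT.
Ldha: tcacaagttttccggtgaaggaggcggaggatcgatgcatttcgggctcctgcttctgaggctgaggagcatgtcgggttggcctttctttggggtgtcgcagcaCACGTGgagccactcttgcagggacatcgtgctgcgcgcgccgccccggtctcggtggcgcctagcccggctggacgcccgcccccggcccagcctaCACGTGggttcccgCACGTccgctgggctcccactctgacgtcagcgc
Pgk1: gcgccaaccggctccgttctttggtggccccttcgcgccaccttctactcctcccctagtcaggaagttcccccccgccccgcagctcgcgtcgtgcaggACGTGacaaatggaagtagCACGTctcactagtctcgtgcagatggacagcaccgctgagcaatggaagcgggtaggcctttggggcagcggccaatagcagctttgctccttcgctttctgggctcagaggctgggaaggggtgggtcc
Pgam1: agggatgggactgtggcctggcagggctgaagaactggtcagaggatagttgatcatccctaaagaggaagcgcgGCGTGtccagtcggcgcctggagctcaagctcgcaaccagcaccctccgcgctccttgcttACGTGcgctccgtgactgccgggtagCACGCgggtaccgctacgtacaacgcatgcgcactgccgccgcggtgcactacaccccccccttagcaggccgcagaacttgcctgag
Slc16a1: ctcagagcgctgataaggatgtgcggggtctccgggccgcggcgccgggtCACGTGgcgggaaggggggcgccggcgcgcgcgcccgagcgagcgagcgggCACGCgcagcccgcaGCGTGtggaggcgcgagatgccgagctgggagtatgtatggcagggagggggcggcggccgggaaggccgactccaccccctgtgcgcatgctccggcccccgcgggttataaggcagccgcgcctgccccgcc

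RefSeq's table held a window for 31 of the 32 members, all but Slc2a3. ACGTG or GCGTG stood in the windows of 28 of those 31 genes (90.3%), against 59.8% of the 10307 tested genes with a window and 41.5% of all 27025 genes of the table. Each motif was also counted whether or not another was present. ACGTG was found for 58.1% of the members and 24.5% of the tested genes, GCGTG for 67.7% and 48.6%, and CACGTG for 19.4% and 9.6%. Among members that fell after CIT in sgCtr cells, 15 of 18 with a window held ACGTG or GCGTG, as did 5 of 5 that rose and 6 of 6 that were not called. In the order fell, rose and not called, ACGTG was found for 8 of 18, 4 of 5 and 5 of 6 genes. GCGTG was found for 12 of 18, 3 of 5 and 5 of 6, and CACGTG for 2 of 18, 2 of 5 and 2 of 6. The genes shown above that fell all hold ACGTG, while Gpi1, Tpi1 and Tigar fell without a match. ACGTG or GCGTG was therefore present in each of these classes, in unlike shares. A match describes the sequence only, not whether a factor binds there.

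In sgCtr cells, CIT was followed by lower RNA of most glycolytic enzymes and of the main lactate transporter, while hexokinase 2, Hif1a and its hydroxylase Egln1 were higher. Of the 30 members tested, 19 fell and 5 rose (adjusted p under 0.05), against 20.9% and 20.4% of the 16794 genes tested (41.4% in either direction). The same 19 and 5 had no overlap between the 3 unstimulated and the 3 stimulated libraries, a pattern seen for 25.0% of tested genes downwards and 25.5% upwards. The median log2 change of the 30 was -0.27, and that of all tested genes was 0.02. Summed over all members, the share of library counts was 0.784 to 0.817% in sgCtr_no and 0.616 to 0.634% in sgCtr_CIT. In RNA from whole cultures, fewer cells of a kind and less RNA per cell cannot be told apart.

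**Figure D1:**
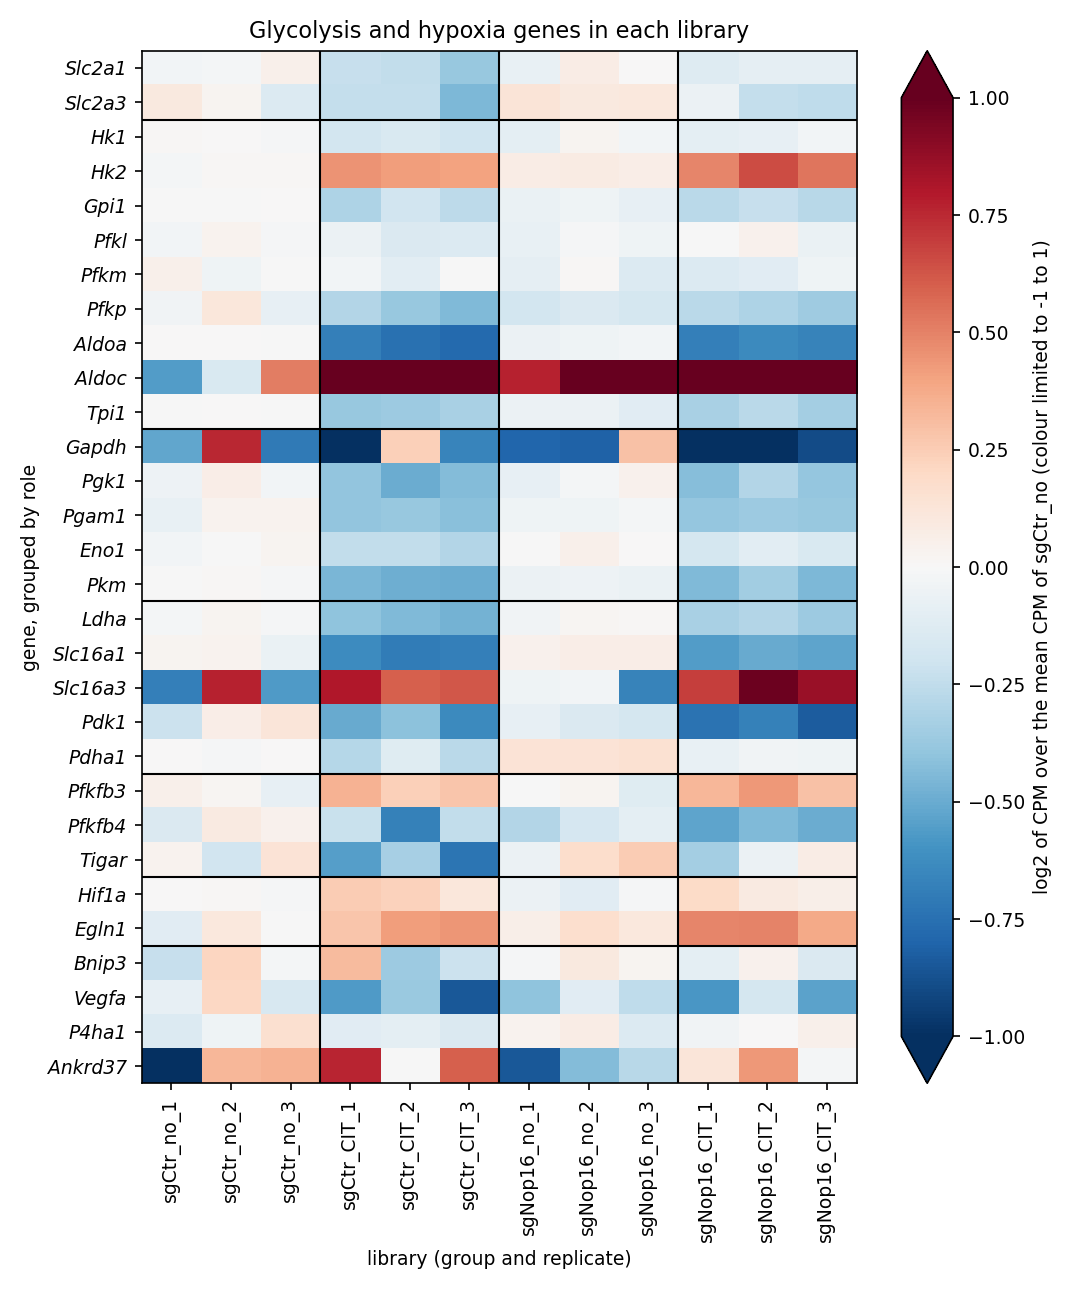
Heat map of 30 genes (one per line, grouped by role) in 12 libraries, coloured by the log2 ratio of CPM to the mean CPM of sgCtr_no, with colours limited to -1 and 1. Most enzyme genes are blue in the 6 CIT libraries, Hk2, Pfkfb3, Hif1a and Egln1 are red there, and Gapdh, Slc16a3, Aldoc and Ankrd37 vary widely between replicates.

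Glucose enters through the facilitative transporters encoded by Slc2a1 and Slc2a3. Slc2a1 was at 53.14, 53.3 and 55.98 CPM in sgCtr_no, 46.19, 45.55 and 41.7 in sgCtr_CIT, 51.49, 56.92 and 54.14 in sgNop16_no, and 49.49, 50.78 and 50.9 in sgNop16_CIT. The stimulated libraries were below the unstimulated ones with either guide, by a wider margin in sgCtr cells. The log2 change was -0.28 ± 0.05 in sgCtr (adjusted p = 0.000386) and -0.10 ± 0.05 in sgNop16 (adjusted p = 0.149), and the difference between these changes, 0.18 ± 0.08, did not pass (adjusted p = 0.303). Slc2a3 fell alike with both guides, by -0.30 ± 0.07 (adjusted p = 0.00231) and -0.29 ± 0.07 (adjusted p = 0.0037). Per kb of exon, Slc2a1 stood above Slc2a3 in all 4 groups, with mean ratios of 1.60 to 1.83.

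Hexokinases trap glucose in the cell by phosphorylation, and their genes moved in opposite directions. Hk2 was at 105.4, 107.7 and 107.7 CPM in sgCtr_no, 145.7, 143.2 and 141.4 in sgCtr_CIT, 112.5, 113 and 111.7 in sgNop16_no, and 150.3, 167.7 and 154.8 in sgNop16_CIT. Every stimulated library was above every unstimulated one. Hk2 rose 1.34-fold in sgCtr (log2 change 0.42 ± 0.04, adjusted p = 1.65e-07) and 1.40-fold in sgNop16 (0.49 ± 0.04, adjusted p = 3.45e-08). Hk1 fell by 0.18 ± 0.04 on the log2 scale in sgCtr (adjusted p = 0.00317) and had a log2 change of -0.04 ± 0.04 in sgNop16 (adjusted p = 0.567). Per kb of exon, Hk2 was 2.25 ± 0.048 (SD, n = 3) times Hk1 in sgCtr_no and 3.42 ± 0.068 times in sgCtr_CIT, and 2.42 ± 0.104 and 3.48 ± 0.229 times in the sgNop16 groups. With the longest transcript as the length instead, these ratios were 1.22, 1.85, 1.31 and 1.89, in the same order.

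Phosphofructokinase, the committed step, is built from subunits encoded by Pfkl, Pfkm and Pfkp. In CPM per kb of exon, the order Pfkl, Pfkm, Pfkp held in all 12 libraries, with means in sgCtr_no of 19.8, 11.3 and 7.33. Pfkp, the lowest, fell by 0.37 ± 0.05 on the log2 scale in sgCtr (adjusted p = 2.32e-05) and by 0.14 ± 0.05 in sgNop16 (adjusted p = 0.0472). Pfkl, the highest, fell by 0.11 ± 0.04 in sgCtr (adjusted p = 0.0236) and was at 0.03 ± 0.04 in sgNop16 (adjusted p = 0.575). Pfkm had log2 changes of -0.05 ± 0.06 (95% interval -0.18 to 0.09) and -0.03 ± 0.06 (-0.16 to 0.11). Exons of Pfkp overlap 748 bases of Pitrm1 on the opposite strand, whose mean count of 4933 was near that of Pfkp, 3735, and no source used here states whether counting used strand. The call of Pfkl in sgCtr was lost without sgCtr_no replicate 2, sgCtr_CIT replicate 2 or sgCtr_CIT replicate 3 (adjusted p up to 0.11), and that of Pfkp in sgNop16 when any sgNop16 library other than sgNop16_CIT replicate 1 was left out (adjusted p up to 0.14).

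Aldoa, the aldolase that splits the bisphosphate sugar, had the largest fall among the members called in sgCtr. It was at 1261, 1257 and 1249 CPM in sgCtr_no, 780.4, 747.8 and 731.6 in sgCtr_CIT, 1205, 1220 and 1229 in sgNop16_no, and 781.6, 809.7 and 791.2 in sgNop16_CIT. The stimulated and unstimulated libraries lay far apart and the replicates close together. The fall was 1.67-fold in sgCtr (log2 change -0.74 ± 0.02, adjusted p = 2.55e-13) and 1.53-fold in sgNop16 (-0.62 ± 0.02, adjusted p = 2.43e-12). Aldoc, the form known best from brain, was near the limit of detection, at 0.1023 to 0.2144 CPM in sgCtr_no and 0.3294 to 0.9279 CPM in sgCtr_CIT. It rose in sgCtr by 1.95 ± 0.63 on the log2 scale (adjusted p = 0.0207), a call lost when any of 3 libraries was left out: without sgCtr_no replicate 1, sgCtr_no replicate 2 or sgCtr_CIT replicate 2 the adjusted p rose as far as 0.118. Tpi1, which interconverts the triose phosphates, fell by 0.36 ± 0.03 in sgCtr (adjusted p = 1.31e-08) and 0.24 ± 0.03 in sgNop16 (adjusted p = 2.16e-06), and Gpi1, the isomerase above it, by 0.25 ± 0.03 (adjusted p = 1.33e-06) and 0.20 ± 0.03 (adjusted p = 2.87e-05).

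**Figure D2:**
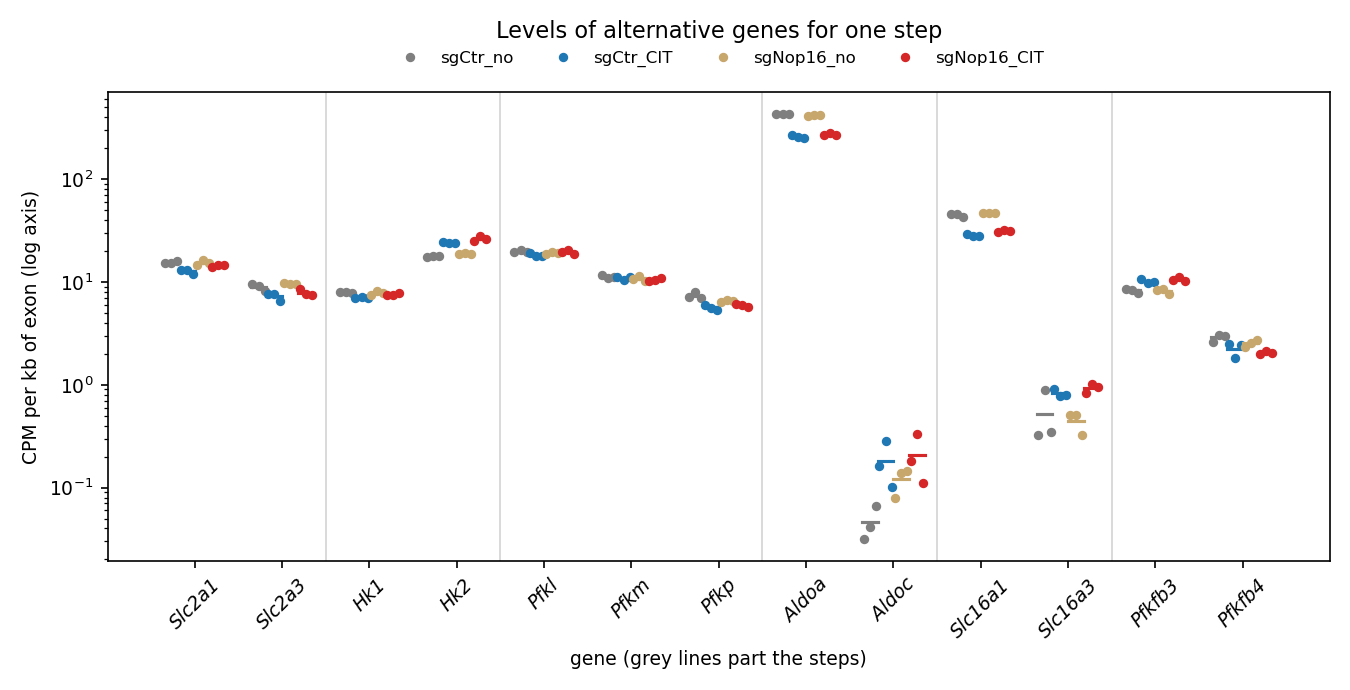
CPM per kb of exon, on a log axis, of members that encode alternative proteins for one step, with 3 points per group and a bar at the mean. Hk2 lies above Hk1 and Pfkl above Pfkm and Pfkp in each group, while Aldoc and Slc16a3 lie far below Aldoa and Slc16a1.

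The later steps yield ATP and pyruvate, and all of their genes other than the Gapdh row fell with both guides. Pkm, pyruvate kinase, was at 1346, 1363 and 1337 CPM in sgCtr_no, 980.6, 963 and 956 in sgCtr_CIT, 1298, 1301 and 1287 in sgNop16_no, and 994.3, 1059 and 987.2 in sgNop16_CIT. Its stimulated libraries lay below all unstimulated ones, with falls of 0.48 ± 0.02 (adjusted p = 6.66e-11) and 0.35 ± 0.02 (adjusted p = 3.59e-09) on the log2 scale. Pgk1, which makes the first ATP of the pathway, went from 327.2, 354.9 and 332.3 CPM to 257, 239.8 and 250.4 in sgCtr and from 319.2, 334.2 and 347.9 to 252.3, 276 and 259.2 in sgNop16. Again no library overlapped, and the log2 changes were -0.44 ± 0.04 (adjusted p = 2.9e-07) and -0.35 ± 0.04 (adjusted p = 5.74e-06). Phosphoglycerate mutase (Pgam1) fell by 0.40 ± 0.03 (adjusted p = 8.09e-09) and 0.34 ± 0.03 (adjusted p = 5.49e-08), and enolase (Eno1) by 0.26 ± 0.02 (adjusted p = 9.82e-08) and 0.16 ± 0.02 (adjusted p = 4.23e-05). Eno1 held 90.93% of the counts of its row and 3 near-identical ones, and Pkm shares 767 exon bases with the predicted gene Gm49759 on its own strand, whose mean count was 1641 against 50714.

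Gapdh, glyceraldehyde phosphate dehydrogenase, is a common reference gene whose sequence recurs in many processed pseudogenes. Its own row read 104.2, 252.9 and 91.62 CPM in sgCtr_no, 69.18, 176.2 and 94.44 in sgCtr_CIT, 86.38, 85.5 and 183.3 in sgNop16_no, and 66.09, 64.6 and 80.45 in sgNop16_CIT. One replicate stood well above the rest in 3 of the 4 groups, and the log2 changes after CIT, -0.40 ± 0.38 in sgCtr (adjusted p = 0.448) and -0.75 ± 0.38 in sgNop16 (adjusted p = 0.149), did not pass. That row held 4.62% of the counts of Gapdh and 87 near-identical rows together, between 2.76% and 9.21% by library. The sum over all of them was 2719, 2748 and 2685 CPM in sgCtr_no, 2142, 2176 and 2149 in sgCtr_CIT, 2620, 2696 and 2633 in sgNop16_no, and 2277, 2334 and 2278 in sgNop16_CIT. The summed libraries of each group lay close together and the groups with and without CIT were apart. On the sum, a choice made after the row's scatter was seen, the log2 change was -0.33 ± 0.02 in sgCtr (adjusted p = 4.34e-11) and -0.21 ± 0.02 in sgNop16 (adjusted p = 2.3e-08). The sum cannot tell transcripts of Gapdh from those of its copies.

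**Figure D3:**
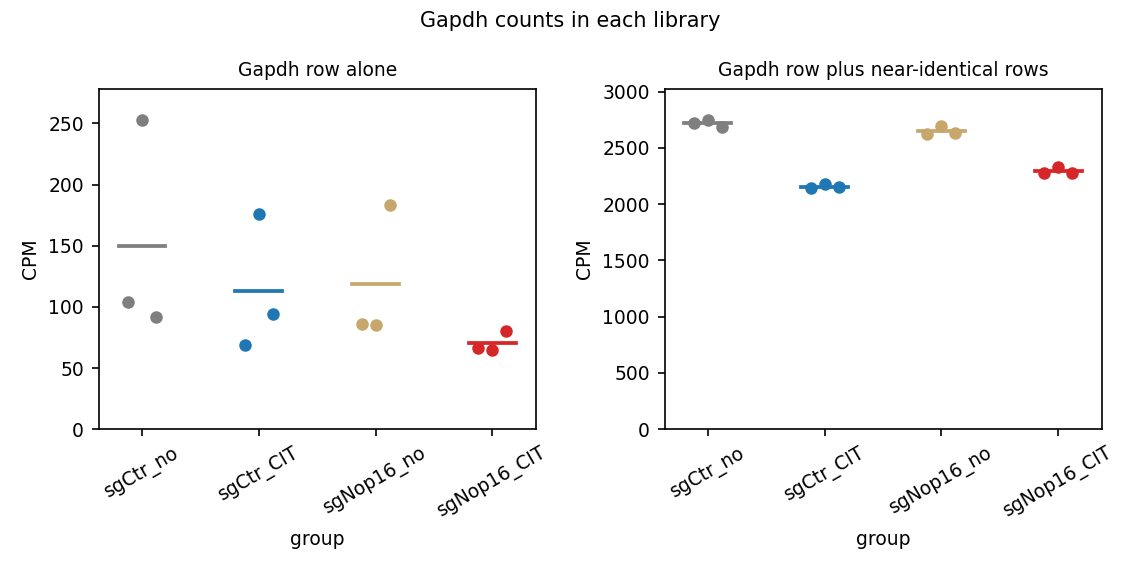
CPM of Gapdh by group, from its own row (left) and from that row plus 87 near-identical rows (right), with a point per library and a bar at the mean. The row alone scatters from 64.6 to 252.9 CPM with overlapping groups, and the sums fall into 4 tight groups between 2142 and 2748 CPM.

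At the end of the pathway, Ldha reduces pyruvate to lactate and Slc16a1 carries lactate across the membrane. Ldha was at 885.8, 915.1 and 887.6 CPM in sgCtr_no, 679.5, 658.9 and 646.8 in sgCtr_CIT, 874.9, 906.6 and 905.3 in sgNop16_no, and 714.3, 731.1 and 696.9 in sgNop16_CIT. It was lower in all stimulated libraries, by 0.44 ± 0.03 (adjusted p = 5.1e-10) and 0.33 ± 0.03 (adjusted p = 2.34e-08) on the log2 scale. Slc16a1 was at 204, 204.3 and 191.2 CPM in sgCtr_no, 129.2, 123.4 and 124.7 in sgCtr_CIT, 205.5, 209.3 and 209.6 in sgNop16_no, and 135.5, 141 and 139 in sgNop16_CIT. It fell 1.59-fold in sgCtr (adjusted p = 1.25e-10) and 1.5-fold in sgNop16 (adjusted p = 7.08e-10). Ldhb, the other lactate dehydrogenase subunit, had 0 counts in all 12 libraries, which allows at most 0.088 to 0.093 CPM per group and covers counting error only.

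Slc16a3, the lactate exporter known as a hypoxia target, was scarce. It was at 1.713, 4.691 and 1.865 CPM in sgCtr_no, 4.799, 4.176 and 4.238 in sgCtr_CIT, 2.682, 2.7 and 1.736 in sgNop16_no, and 4.441, 5.45 and 5.008 in sgNop16_CIT. Replicate 2 of sgCtr_no was as high as the stimulated libraries. The gene rose 2.09-fold in sgNop16 (log2 change 1.07 ± 0.31, adjusted p = 0.0118), with an adjusted p of 0.0635 without sgNop16_no replicate 3. In sgCtr the log2 change was 0.67 ± 0.31 (adjusted p = 0.0938), and 1.29 with an adjusted p of 0.00032 without sgCtr_no replicate 2. Per kb of exon, Slc16a1 was a mean of 106 ± 47.7 times Slc16a3 in sgCtr_no and 34.4 ± 1.78 times in sgCtr_CIT, and 110 ± 30.3 and 33.7 ± 2.80 times in the sgNop16 groups.

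Pyruvate dehydrogenase consumes pyruvate inside mitochondria, and Pdk1 encodes a kinase that switches it off. Pdk1 was at 40.25, 48.88 and 50.71 CPM in sgCtr_no, 32.91, 35.03 and 30.04 in sgCtr_CIT, 43.92, 42.2 and 41.36 in sgNop16_no, and 27.9, 29.16 and 26.15 in sgNop16_CIT. No stimulated library reached an unstimulated one, and the falls were 0.51 ± 0.08 (adjusted p = 8.22e-05) and 0.61 ± 0.08 (adjusted p = 1.74e-05) on the log2 scale. Pdha1, which encodes the catalytic alpha subunit of the dehydrogenase, also fell, by 0.22 ± 0.04 (adjusted p = 0.000342) and 0.19 ± 0.04 (adjusted p = 0.00148). Pdk1 and Pdha1 thus both fell with both guides. They are only 1 of the kinase genes and 1 of the subunit genes of this step.

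Flux through phosphofructokinase is set by a sugar bisphosphate that Pfkfb3 and Pfkfb4 make and that Tigar removes. Pfkfb3 was at 65.13, 63.81 and 59.48 CPM in sgCtr_no, 80.04, 74.21 and 75.93 in sgCtr_CIT, 62.67, 63.97 and 57.83 in sgNop16_no, and 78.95, 84.96 and 76.89 in sgNop16_CIT. All stimulated libraries were higher, by 0.29 ± 0.05 (adjusted p = 0.000395) and 0.38 ± 0.05 (adjusted p = 2.91e-05) on the log2 scale. Pfkfb4 fell by 0.37 ± 0.12 in sgCtr (adjusted p = 0.024), and its log2 change in sgNop16 was -0.30 ± 0.12 (adjusted p = 0.0669). The sgCtr call was lost without sgCtr_no replicate 2, sgCtr_no replicate 3 or sgCtr_CIT replicate 2, with an adjusted p of up to 0.125. Per kb of exon, Pfkfb3 stood at 2.90 ± 0.348 times Pfkfb4 in sgCtr_no and 4.61 ± 0.712 times in sgCtr_CIT, and at 3.22 ± 0.349 and 5.16 ± 0.163 times in the sgNop16 groups. Tigar fell by 0.53 ± 0.13 in sgCtr (adjusted p = 0.00418), from 15.2 to 19.06 CPM down to 10.45 to 13.81 CPM. In sgNop16 its libraries overlapped, at 16.69 to 20.69 CPM without and 13.68 to 18.27 CPM with CIT, with a log2 change of -0.23 ± 0.13 (adjusted p = 0.208).

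RNA of Hif1a and of its hydroxylase Egln1 rose with both guides. It was at 132.3, 133 and 131 CPM in sgCtr_no, 157.2, 154.6 and 143 in sgCtr_CIT, 127.1, 121.9 and 131.3 in sgNop16_no, and 150.5, 140.6 and 137.5 in sgNop16_CIT. The stimulated libraries were above all unstimulated ones, 1.15-fold in sgCtr (log2 change 0.20 ± 0.04, adjusted p = 0.00149) and 1.13-fold in sgNop16 (0.17 ± 0.04, adjusted p = 0.00496). Egln1, the hydroxylase that marks HIF1A for destruction and is itself a hypoxia target, was at 45.21, 52.53 and 48.65 CPM in sgCtr_no, 59.06, 65.14 and 66.38 in sgCtr_CIT, 50.91, 54.84 and 52.48 in sgNop16_no, and 68.36, 68.77 and 63.32 in sgNop16_CIT. It too was higher in every stimulated library, by 0.38 ± 0.06 (adjusted p = 0.000102) and 0.34 ± 0.06 (adjusted p = 0.000327). Egln3, a hydroxylase that hypoxia commonly induces, had 0 counts in all 12 libraries, with the same limit as Ldhb. RNA levels do not show the amount or stability of the HIF1A protein.

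Of the other 4 hypoxia genes, 1 was called after CIT in sgCtr, against 41.4% of all tested genes. Vegfa, the vascular growth factor, was at 18.64, 22.8 and 17.67 CPM in sgCtr_no and 13.3, 15.21 and 10.93 in sgCtr_CIT, and at 14.87, 18.26 and 16.52 in sgNop16_no and 13.15, 17.48 and 13.62 in sgNop16_CIT. It fell 1.5-fold in sgCtr (log2 change -0.58 ± 0.14, adjusted p = 0.00329), and in sgNop16, where the libraries overlapped, its log2 change was -0.16 ± 0.14 (adjusted p = 0.427). The difference between those changes, 0.42 ± 0.20, did not pass (adjusted p = 0.39). Bnip3, a mitophagy receptor, stood at -0.06 ± 0.16 and -0.10 ± 0.16, and P4ha1, a collagen prolyl hydroxylase subunit, at -0.12 ± 0.08 and 0.01 ± 0.08, none of which passed. Ankrd37, an ankyrin repeat gene induced by hypoxia, had fewer than 3 CPM in every library and log2 changes of 0.48 ± 0.34 (adjusted p = 0.296) and 0.69 ± 0.35 (adjusted p = 0.14). It shares 57 exon bases with Ufsp2 on the opposite strand, whose mean count was 1122 against 81.8.

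With the Nop16 guide, CIT was followed by the same pattern with fewer calls: 13 of 30 members fell and 5 rose, against 18.2% and 18.9% of tested genes (37.0% in either direction). The median log2 change was -0.16, against 0.01 over all tested genes. All 13 that fell were among the 19 of sgCtr cells (100% and 68.4% of the respective lists). Of the 5 that rose, 4 were shared, Hk2, Egln1, Pfkfb3 and Hif1a (80% of each). The same overlap was not counted over all tested genes, so these shares have no background to be read against. The 6 called lower in sgCtr alone were Hk1, Pfkfb4, Pfkl, Slc2a1, Tigar and Vegfa. Libraries did not overlap for 16 members downwards and 6 upwards, against 22.7% and 24.3% of tested genes. The members' share of library counts was 0.778 to 0.797% in sgNop16_no and 0.645 to 0.667% in sgNop16_CIT.

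**Figure D4:**
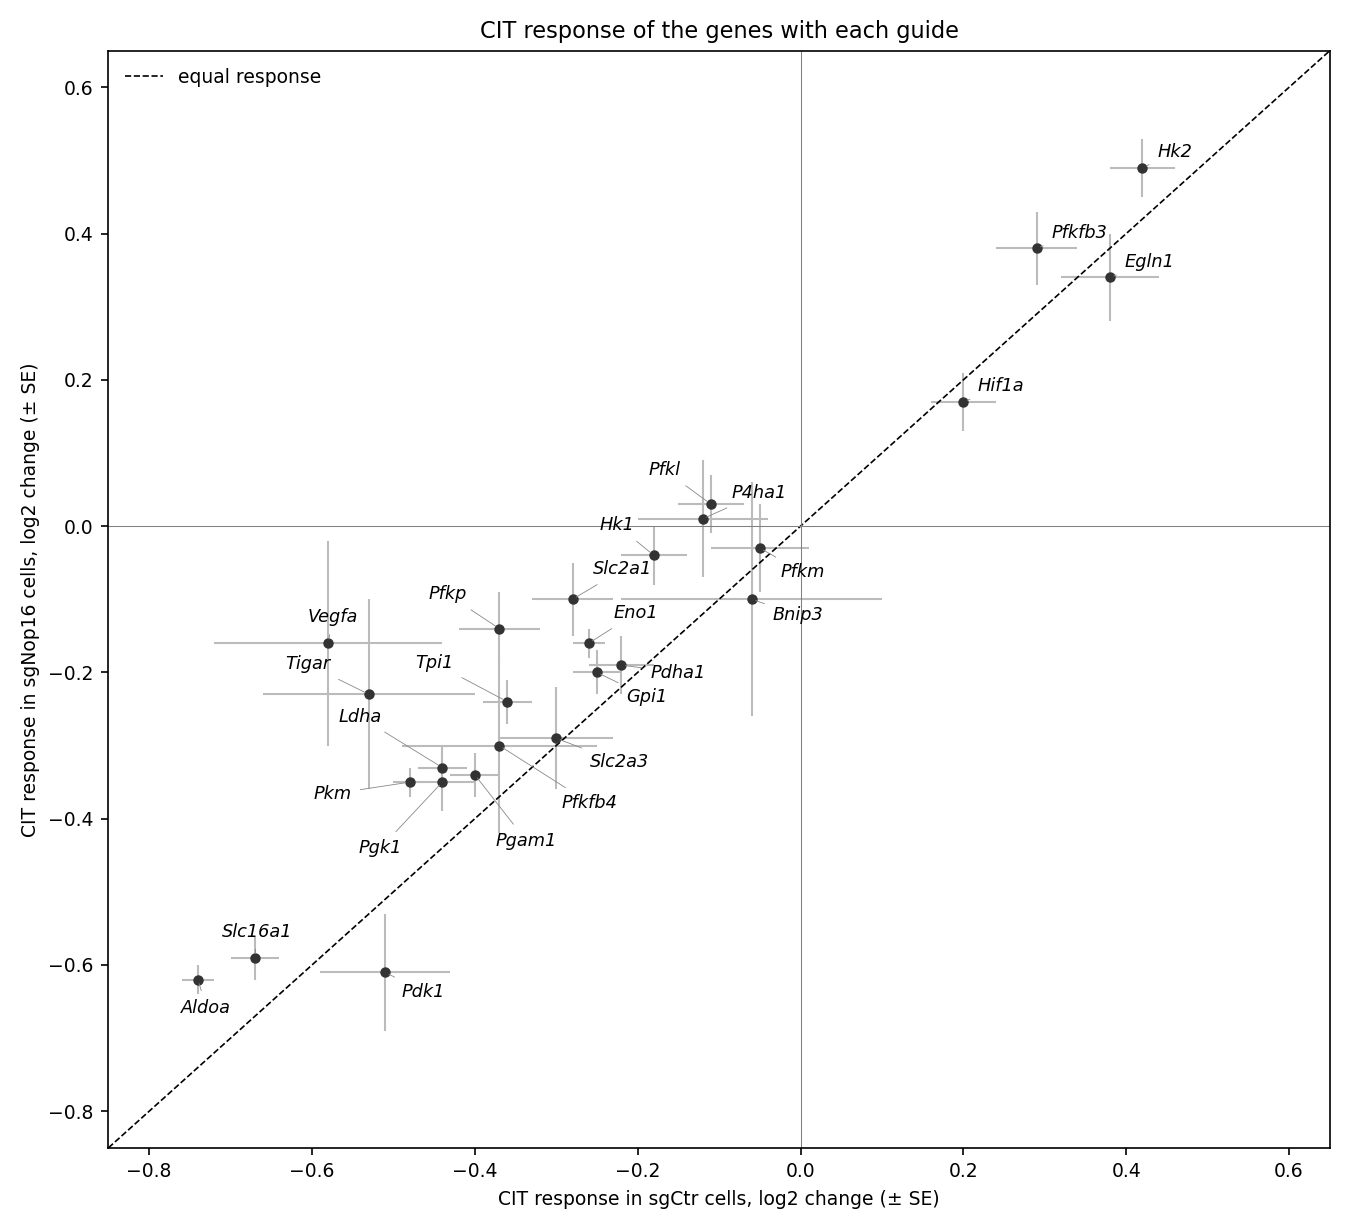
Log2 change after CIT in sgNop16 cells against that in sgCtr cells for 26 members (Gapdh and the low-count Aldoc, Slc16a3 and Ankrd37 are left out), with SE bars and a dashed line of equal change. Hk2, Pfkfb3, Egln1 and Hif1a lie at the upper right and Aldoa and Slc16a1 at the lower left, and most enzymes that fell lie above the line.

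Whether the guide changed the CIT response was tested directly, and 0 of the 30 members passed, against 2.13% of all genes tested, 0.881% upwards and 1.25% downwards (edgeR's quasi-likelihood test). At an unadjusted p under 0.05 there were 9: Aldoa, Eno1, Hk1, Ldha, Pfkl, Pfkp, Pkm, Slc2a1 and Tpi1. In each of them the log2 change after CIT was lower in sgCtr than in sgNop16 cells. How many of all tested genes passed that looser cut was not counted. The nearest were Pkm, at 0.13 ± 0.03 (adjusted p = 0.0603), and Aldoa, at 0.12 ± 0.03 (adjusted p = 0.068). Pkm passed when sgNop16_CIT replicate 3 was left out and Aldoa when sgCtr_CIT replicate 1 was. DESeq2 called 5, Aldoa, Tpi1, Eno1, Pkm and Ldha, with log2 differences of 0.10 to 0.12. Of all 16794 tested genes, DESeq2 called 366 higher and 401 lower. The difference was above 0 for 24 members and below 0 for 6, with a median of 0.10 against 0.01 over all tested genes. The split by sign was not counted over all tested genes, and the members share the same 12 libraries. For the sum of Gapdh and its near-identical rows the difference was 0.13 ± 0.02 (adjusted p = 0.00693), and 0.11 to 0.13 with adjusted p of 0.00887 to 0.036 when each library was left out in turn.

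Without CIT, no member differed between the guides by edgeR's quasi-likelihood test, against 3.32% of all tested genes (1.79% higher and 1.53% lower). At an unadjusted p under 0.05, 1 was higher in sgNop16 (Pdha1) and 4 were lower (Gpi1, Pfkp, Pkm and Tpi1), a cut not counted over all tested genes. The log2 differences of these 5 were small, from -0.17 ± 0.05 for Pfkp (adjusted p = 0.0993) to 0.14 ± 0.04 for Pdha1 (adjusted p = 0.0805). DESeq2 called Pdha1 higher and Pfkp lower, and of all 16794 tested genes it called 514 higher and 413 lower. Pdha1 was at 108.1, 106.9 and 107.9 CPM in sgCtr_no and 118.5, 118.2 and 119.7 in sgNop16_no, with no overlap. Libraries did not overlap for 4 members upwards and 5 downwards, against 9.45% and 9.39% of tested genes. The 95% intervals of the enzymes with most counts were narrow: -0.10 to 0.01 for Aldoa, -0.06 to 0.06 for Ldha and -0.04 to 0.07 for Eno1.

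With CIT, 5 members were higher in sgNop16 cells and 0 were lower, against 3.39% and 2.77% of tested genes (6.16% in either direction). Eno1 was at 1107, 1106 and 1070 CPM in sgCtr_CIT and 1166, 1224 and 1184 in sgNop16_CIT, a log2 difference of 0.12 ± 0.02 (adjusted p = 0.00438). Ldha differed by 0.11 ± 0.03 (adjusted p = 0.0156), Slc16a1 by 0.14 ± 0.03 (adjusted p = 0.0242), Pdha1 by 0.17 ± 0.04 (adjusted p = 0.0208) and Hk2 by 0.14 ± 0.04 (adjusted p = 0.0475). In each of these 5 genes all 3 sgNop16 libraries were above all 3 sgCtr libraries, with folds of at most 1.13. Of the 5, Eno1 alone passed under every alternative tried. Leaving out single libraries left between 1 and 6 calls: 1 each without sgCtr_CIT replicate 3 or sgNop16_CIT replicate 2, 2 without sgNop16_CIT replicate 3 and 3 without sgCtr_CIT replicate 2.

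Libraries did not overlap for 10 members upwards and 1 downwards, against 13.2% and 10.9% of tested genes. The one downwards was Pdk1, at -0.24 ± 0.08 (adjusted p = 0.122), also the 1 member lower at an unadjusted p under 0.05. That cut was not counted over all tested genes, and DESeq2 called 0 members lower. Tigar had the largest positive difference, 0.43 ± 0.13 (adjusted p = 0.0721), at 11.82, 13.81 and 10.45 CPM in sgCtr_CIT and 13.68, 16.7 and 18.27 in sgNop16_CIT, and it passed without sgCtr_CIT replicate 2 or sgNop16_CIT replicate 1. The median over the 30 was 0.08, against 0.01 over all tested genes. The summed Gapdh rows were higher in sgNop16_CIT by 0.09 (adjusted p = 0.00234), whereas the Gapdh row alone was at -0.69 ± 0.38 (adjusted p = 0.381). These differences share their stimulated libraries with the CIT responses above and are not separate evidence.

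**Figure D5:**
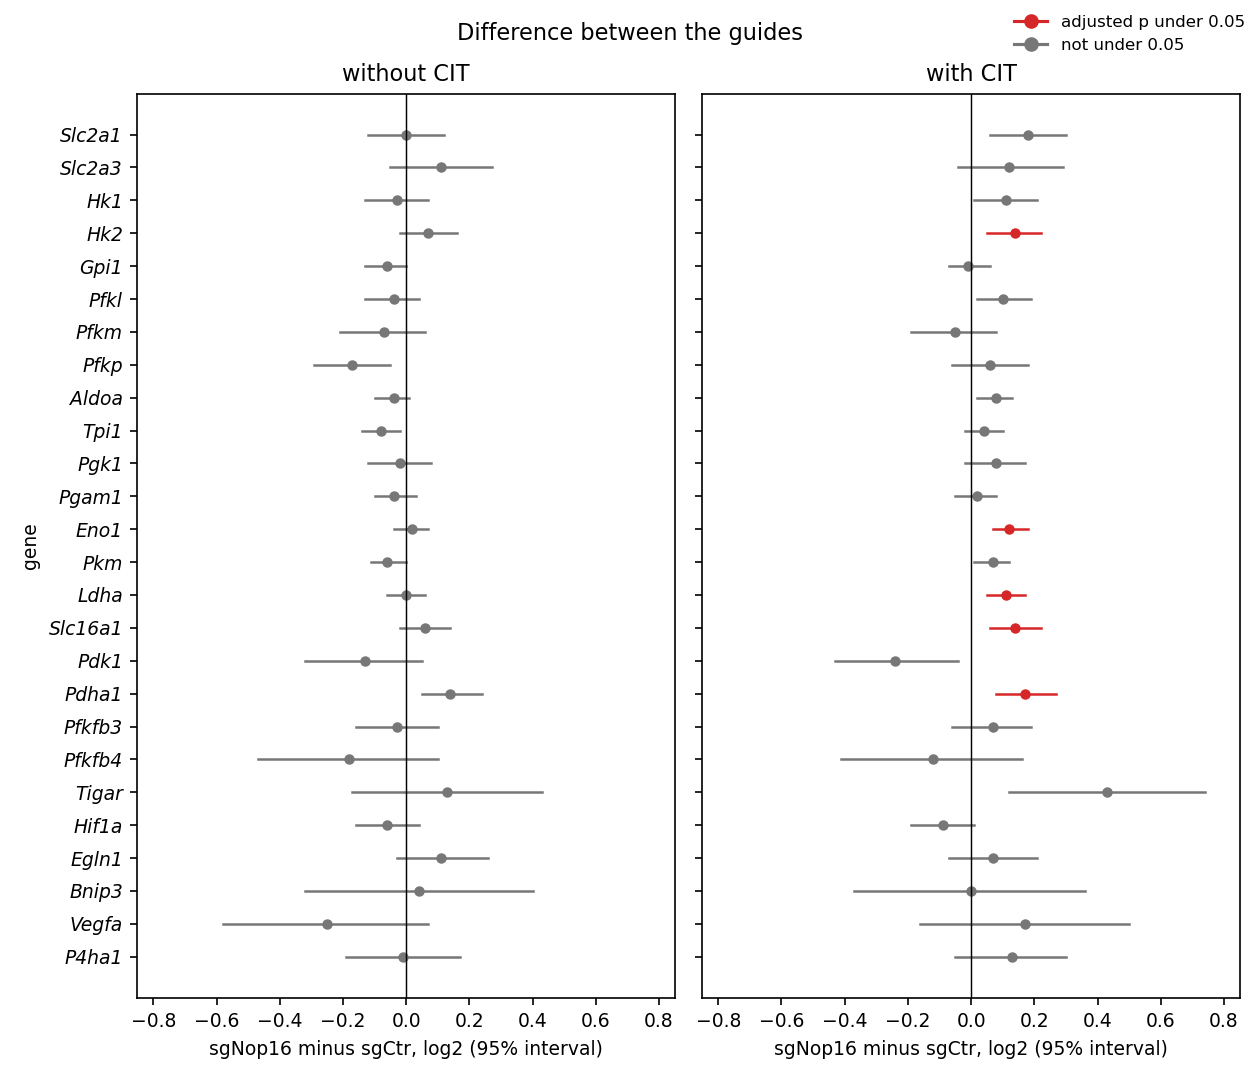
Log2 difference between sgNop16 and sgCtr cells, with 95% intervals, for 26 members without CIT (left) and with CIT (right), red where the adjusted p is under 0.05. No interval is red without CIT, and with CIT Hk2, Eno1, Ldha, Slc16a1 and Pdha1 are red, all between 0.11 and 0.17.

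Related genes outside the 32 moved in both directions after CIT. Of 19 further glycolysis genes, 14 were tested, and after CIT 6 rose and 5 fell in sgCtr, against 20.4% and 20.9% of all tested genes, and 7 and 4 in sgNop16, against 18.9% and 18.2%. Slc2a6, a hexose transporter of vesicle membranes, rose 12.9-fold in sgCtr (log2 change 3.69 ± 0.10, adjusted p = 7.43e-14), from 7.004 ± 1.18 to 89.9 ± 2.18 CPM, and 13.1-fold in sgNop16. The neuronal enolase Eno2 rose by 0.91 ± 0.08 in sgCtr. Among those that fell in sgCtr were galactokinase (Galk1, -0.86 ± 0.04), muscle enolase (Eno3, -0.45 ± 0.08) and Minpp1 (-0.34 ± 0.06), a phosphatase of inositol phosphates. In sgNop16, the liver-type regulator Pfkfb1 rose by 0.95 ± 0.16.

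Of 13 genes for the entry of pyruvate into mitochondria and its handling there, 11 were tested. In sgCtr 3 rose and 4 fell (27.3% and 36.4%, against 20.4% and 20.9% of all tested genes). In sgNop16 3 rose and 3 fell (27.3% each, against 18.9% and 18.2%). Pyruvate carboxylase (Pcx) rose by 0.57 ± 0.05 and the pyruvate carrier subunit Mpc1 by 0.43 ± 0.07 in sgCtr, while the dehydrogenase subunits Dld and Dlat fell by 0.31 ± 0.04 and 0.30 ± 0.06. Without CIT, Pcx was higher in sgNop16 by 0.33 ± 0.05 (adjusted p = 0.00206) and the mitochondrial carboxykinase Pck2 lower, at -0.19 ± 0.05 (adjusted p = 0.0292). The Pck2 call was lost without sgCtr_no replicate 2 or 3 or sgNop16_no replicate 1 or 3, with an adjusted p of up to 0.134. The pentose phosphate pathway branches from the first sugar phosphate of glycolysis. Of its 7 genes, 5 fell and 1 rose in sgCtr, against 20.9% and 20.4% of all tested genes, and 3 fell and 1 rose in sgNop16, against 18.2% and 18.9%. Pgd fell by 0.36 ± 0.04, Rpia by 0.35 ± 0.05 and Tkt by 0.32 ± 0.02 in sgCtr, and Pgls rose by 0.21 ± 0.04. Pgls shares 776 exon bases with Fam129c on the same strand, so counts may have been split between them.

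Of 28 further hypoxia genes, 22 were tested: 13 rose and 5 fell in sgCtr, 14 rose and 3 fell in sgNop16, with medians of 0.29 and 0.37. Of all tested genes, 20.4% rose and 20.9% fell in sgCtr, and 18.9% and 18.2% in sgNop16. The transcriptional repressors Nfil3 and Bhlhe40 rose by 2.00 ± 0.07 and 1.65 ± 0.04 in sgCtr, and the cyclin Ccng2 by 1.85 ± 0.11. The HIF inhibitor Cited2 fell by 0.84 ± 0.04, the cytokine Mif by 0.53 ± 0.03 and the MAX interactor Mxi1 by 0.35 ± 0.09. Several of these genes also answer to signals other than oxygen. Between the guides, Bhlhe40 and the Notch effector Rbpj were higher in sgNop16 without CIT, by 0.40 ± 0.04 (adjusted p = 2.28e-05) and 0.38 ± 0.03 (adjusted p = 8.92e-06). With CIT, 3 of the 22 were higher (Plod1 0.40 ± 0.11, Mif 0.22 ± 0.03 and Rbpj 0.16 ± 0.03) and 2 were lower (Ddit4 -0.48 ± 0.07 and Zfp395 -0.26 ± 0.05). Of all tested genes, 3.39% were higher and 2.77% lower. The Plod1 call (adjusted p = 0.0469) was lost when any of the 6 libraries compared was left out, with an adjusted p of up to 0.173, and that of Rbpj without sgCtr_CIT replicate 1 (0.0522).

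Of the 7 genes of oxygen sensing, 5 were tested. Egln2, the third HIF hydroxylase, fell 2.78-fold in sgCtr (log2 change -1.48 ± 0.06, adjusted p = 8.64e-12) and 3.04-fold in sgNop16 (-1.60 ± 0.06, adjusted p = 4.04e-12), while its relative Egln1 rose. Hif3a, at very low counts, and Vhl, the ubiquitin ligase subunit that recognises hydroxylated HIF, rose in sgCtr by 1.34 ± 0.45 (adjusted p = 0.024) and 0.20 ± 0.08 (adjusted p = 0.049). The Hif3a call was lost without sgCtr_no replicate 1 or 3 or sgCtr_CIT replicate 2 or 3 (adjusted p up to 0.096), and that of Vhl when any of the 6 libraries other than sgCtr_CIT replicate 1 was left out (up to 0.192). With CIT, Egln2 and Vhl were lower in sgNop16, at -0.34 ± 0.06 (adjusted p = 0.00331) and -0.28 ± 0.08 (adjusted p = 0.0412). Egln2 passed under every alternative, whereas the Vhl call was lost when any of the 6 libraries other than sgNop16_CIT replicate 3 was left out (adjusted p up to 0.164).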

How the data were processed

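Per the submitters' processing notes, the tools were HISAT2 2.2.1 and StringTie 2.2.1 and the build GRCm39; the roles are not given. Libraries were made with a directional kit, per the labels' protocols. The deposited table holds whole-number estimated counts per Ensembl gene for 12 libraries. A fragment appears to be worth about 4 counts (8845 values of 4, against 7532 of 3 and 4025 of 5), so totals overstate independent fragments. Symbols came from a GRCm38 annotation (51948 of 56941 genes matched, 4993 did not), as did exon lengths and overlaps. Rows were called near-identical where they shared at least 100 words of 50 bases with a member's transcripts.

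Genes passing edgeR's filterByExpr (16794) were fitted with edgeR 4.0.16 (R 4.3.3): TMM factors (0.985 to 1.013), 1 mean per group over all 12 libraries, glmQLFit, two-sided glmQLFTest, Benjamini-Hochberg over all tested genes, calls at adjusted p under 0.05. CPM used TMM-scaled library totals, and shares of counts used unscaled totals. SE is the log2 change over the square root of F; p-values measure the spread between these cultures. Counts were simulated for the CIT contrast in sgCtr with 200 of 16794 genes changed and 1 dispersion (0.015) for all genes. There, 42% of 1.5-fold and 82% of 2-fold changes were recovered, and 3.12% of calls were false. The simulation left out fragments of about 4 counts, and in the data 41.4% of genes were called. Its rates need not hold for the real counts, and smaller folds were not simulated. Alternatives were other filters, RLE factors, library totals, the replicate block, only the groups compared, DESeq2 1.42.0, counts divided by 4, and each library left out. No 2 libraries held identical values. All 32 members are accounted for; from other lists, up to 3 called genes each way were named, except 1 that is not reported here. Members and lists were chosen with earlier results of these data known.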

Additional observations from a re-analysis of the deposited data

Results flagged for a closer look

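For 4 genes of the lists beside the 32 members, and for the summed Gapdh rows, the response to CIT differed between the guides by the test of that difference (log2 change in sgNop16 minus that in sgCtr, edgeR's quasi-likelihood test). Of the tested genes, 2 of 22 further hypoxia genes and 2 of 7 pentose phosphate genes passed. In the other lists 0 passed, of 14 further glycolysis, 11 pyruvate entry and 5 oxygen sensing genes. Over all tested genes 2.13% passed, 0.881% upwards and 1.25% downwards. Bhlhe40 differed by -0.43 ± 0.06 (adjusted p = 0.000664), since it rose by 1.65 in sgCtr and 1.22 in sgNop16. Its level differed between the guides mainly without CIT, at 111.6 CPM in sgCtr_no and 147.6 in sgNop16_no. With CIT it was at 351.4 CPM in sgCtr_CIT and 345 in sgNop16_CIT. The level of Rbpj was higher in sgNop16 in both states, at 261.6 and 339.7 CPM without CIT and 429.6 and 479.1 with CIT. Rbpj differed by -0.22 ± 0.05 (adjusted p = 0.0248), Pgls by 0.23 ± 0.06 (adjusted p = 0.0385) and Tkt by 0.17 ± 0.03 (adjusted p = 0.00577). Gapdh with its near-identical rows differed by 0.13 ± 0.02 (adjusted p = 0.00693). Bhlhe40 and Tkt passed under every alternative, with adjusted p of at most 0.00296 and 0.033, whereas Rbpj reached 0.07, with 5 single libraries each enough to lose the call (sgCtr_no 1, sgCtr_CIT 2 and 3, sgNop16_no 1 and sgNop16_CIT 3) and lost with no filter too, and Pgls 0.119, with calls lost when any library other than sgCtr_CIT 3 or sgNop16_CIT 3 was left out, and also with no filter, library totals or the replicate block.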

How the results depend on the processing

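Of the calls after CIT, 21 of 24 in sgCtr and 16 of 18 in sgNop16 passed under every alternative, the exceptions being Aldoc, Pfkfb4 and Pfkl in sgCtr and Pfkp and Slc16a3 in sgNop16. Of the 5 guide differences with CIT, 1 did (Eno1). Leaving out each library in turn gave 4 to 5 members higher and 17 to 19 lower in sgCtr, 4 to 5 and 12 to 13 in sgNop16, 1 to 6 higher between the guides with CIT, and 0 to 1 for the difference between the CIT responses. The guide difference without CIT, 0 members either way, became 1 higher with at least 5 CPM in 3 libraries, with library totals or with DESeq2, and 1 lower with DESeq2. The 5 higher with CIT became 3 with only the groups compared and 9 with DESeq2. The difference between the responses, 0 higher, became 5 with DESeq2 and 1 with near-identical rows added or a robust fit, both chosen after seeing the data. The causes were not tested. The sign of the Gapdh row's log2 change reversed. In sgCtr it ranged from -0.87 (without sgCtr_CIT replicate 2) to 0.21 (without sgCtr_no replicate 2), and the difference between the responses from -0.97 (without sgCtr_no replicate 2) to 0.12 (without sgCtr_CIT replicate 2) and 0.10 (without sgNop16_no replicate 3). Near-identical rows added gave 0.13 for that difference and 0.09 between the guides with CIT. Over all genes, the guide difference without CIT went from 301 higher to 195 (only the groups compared) or 514 (DESeq2) and from 257 lower to 160 (no filter) or 413 (DESeq2), that with CIT from 569 higher to 894 (DESeq2), and the difference between the responses from 148 higher to 83 or 366 and from 210 lower to 124 or 401 (no filter, DESeq2). Leaving out a library brought the guide differences to as few as 207 and 138 without CIT and 316 and 297 with CIT, and the difference between the responses to as few as 69 higher and 130 lower. In the other lists, counts of 4 genes or fewer moved by as much: after CIT, oxygen sensing in sgCtr from 2 higher to 0 and pyruvate entry from 4 lower to 2 (a library left out); between the guides without CIT, the pentose phosphate pathway from 1 lower to 0 (only the groups compared) or 3 (DESeq2); with CIT, further hypoxia genes from 3 higher to 1 (a library left out). The median log2 change of all genes after CIT in sgCtr was 0.018 with TMM, 0.024 with RLE and 0.052 with library totals, and lay nearer to 0 in the other comparisons.

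Over all groups the replicate numbers did not pair the libraries. Of 18 same-number pairs, 3 had a correlation of deviations over 0.1 (range -0.131 to 0.134). Of 12 libraries, 2 correlated best with their own number. The 3 pairs were those of sgCtr_CIT with sgNop16_CIT (0.105, 0.134 and 0.118). Pairs of unlike number between these groups ran from -0.09 to -0.023, and between other groups as high as 0.133. A pairing of the stimulated libraries alone was not tested, and the replicate block over all 12 libraries does not model it. With the number as a replicate block, Slc16a3 in sgCtr passed (0.77, adjusted p = 0.0451) and Hk2 between the guides with CIT did not, which gave 6 and 4 members higher in place of 5 and 5. The difference between the responses no longer passed for Pgls, which left 1 of 2 pentose phosphate genes. Low counts limit Aldoc, Slc16a3 and Ankrd37.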
